A study of Mus musculus with 16 samples.

Results

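The 10 genes described here encode receptors of the interleukin-6 (IL-6) cytokine family, the kinases and the transcription factor that act below them, and 3 STAT3 target genes, measured in whole mouse hearts. They were taken by symbol from a table of 18346 genes, and all 10 were found: Il6ra, Osmr, Lifr and Il6st among the receptors, Jak1 and Jak2 among the kinases, Stat3, and the targets Socs3, Pim1 and Bcl3. All 10 passed the filter on low counts that left 13373 genes to test. RNA was sequenced from 16 hearts in 4 groups of 4 mice: wild-type mice of 8 weeks, wild-type mice of 25 months, systemic Armh4 knockout mice of 8 weeks and systemic Armh4 knockout mice of 25 months. The wild-type animals are described as c57bl/6j; the knockout allele, its strain background and the deleted exons are not given in the sources used here. All mice were fed a normal diet, no treatment other than ageing is labelled, and the 4 libraries of a group are labelled as independent animals, so the spread in each group is a spread between hearts.

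Cytokines of the IL-6 family bind a ligand-specific receptor chain (IL-6 receptor alpha from Il6ra, oncostatin M receptor from Osmr, LIF receptor from Lifr) and the shared chain gp130, encoded by Il6st. The shared chain gp130 carries the kinases JAK1 and JAK2, which phosphorylate STAT3. Phosphorylated STAT3 moves to the nucleus and induces genes such as Socs3, whose protein then blocks gp130 and the kinases. In the heart, gp130 and STAT3 are known for their roles in cardiomyocyte survival and hypertrophy, and oncostatin M for its action on cardiomyocytes and fibroblasts during inflammation. ARMH4, the protein removed in the knockout, is a single-pass membrane protein that has been reported to bind gp130 and to dampen STAT3 phosphorylation. Transcript levels do not measure phosphorylation, so the state of the pathway's proteins was not measured here.

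Each library held between 11456503 and 13298660 counted reads. Armh4 checked the genotype labels: it lay between 12.7 and 20.3 CPM (read counts relative to the scaled size of the library) in the 8 wild-type hearts, between 0.0825 and 0.50 CPM in the 8-week knockout hearts and between 0.890 and 1.68 CPM in the 25-month knockout hearts. Its log2 change in knockout against wild type was -5.33 ± 0.25 (standard error, SE, as for every log2 change below) at 8 weeks and -4.01 ± 0.21 at 25 months. Heart muscle markers were abundant in every library, with the summed level of 10 cardiomyocyte genes between 77640 and 108200 CPM. Old wild-type heart 1 stood apart from its group: in pairs of libraries the chi-square of counts per degree of freedom was 22.1 to 41.3 with the other 3 hearts, against 10.8 to 22.5 among those 3 and 3.67 to 17.3 within the other groups. It also had the highest summed macrophage level (748 CPM) and erythroid level (2211 CPM) of its group. Its summed level of 9 atrial cardiomyocyte markers was 557 CPM, against 225.5 to 247 CPM in the other 3 hearts. Which of the 9 genes carried that sum is not given here. Myl7, a gene of that list, was lower in every old wild-type heart, heart 1 included, than in every old knockout heart. Without heart 1 the changes with age in wild-type hearts were 0.35 for Osmr (edgeR adjusted p = 0.0315), 0.43 for Jak1 (adjusted p = 0.00228) and 1.003 for Bcl3 (adjusted p = 0.0331). In whole-heart RNA, fewer cells of a type and less RNA per cell cannot be told apart.

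Of the 10 genes, 3 changed with age in wild-type hearts, all upward: Osmr, Jak1 and Bcl3. The count of 3 of 10 stands beside 21.9% of all tested genes that passed the quasi-likelihood F test of edgeR after Benjamini-Hochberg adjustment (adjusted p under 0.05) in this comparison, and 11.9% that passed it as higher, so it is near the rate over all genes. None of the 10 passed the test with age in knockout hearts (7.67% of all genes did), in knockout against wild type at 25 months (1.11%), in knockout against wild type at 8 weeks (0.322%), or for a difference between the genotypes in the ageing change (0.576%). The median log2 change of the 10 was 0.252 with age in wild-type hearts, 0.146 with age in knockout hearts, -0.117 for knockout against wild type at 25 months and -0.065 at 8 weeks, where the medians over all tested genes lay between -0.011 and 0.005. The 4 pairwise comparisons share groups of hearts, so a group that lies low or high enters 2 of them.

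At an unadjusted p under 0.05, 3 of the 10 genes were found at 25 months between genotypes (Osmr, Pim1 and Bcl3, beside 11.0% of all genes), 3 at 8 weeks (Stat3, Jak1 and Pim1, beside 11.2%), 3 with age in wild-type hearts (35.1%), 1 with age in knockout hearts (Lifr, 21.9%) and 1 for the difference in ageing (Jak1, 12.4%). DESeq2 and limma on FPKM also called 0 of the 10 in the comparisons where edgeR called 0. The 95% intervals give the sizes that remain possible. For knockout against wild type they lay within 2-fold in either direction for 10 of 10 genes at 8 weeks and for 9 of 10 at 25 months, the exception being Bcl3, and within 1.5-fold for 5 and 6 genes. A change of 2-fold was thus outside the interval of nearly every one of these genes.

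**Figure D1:**
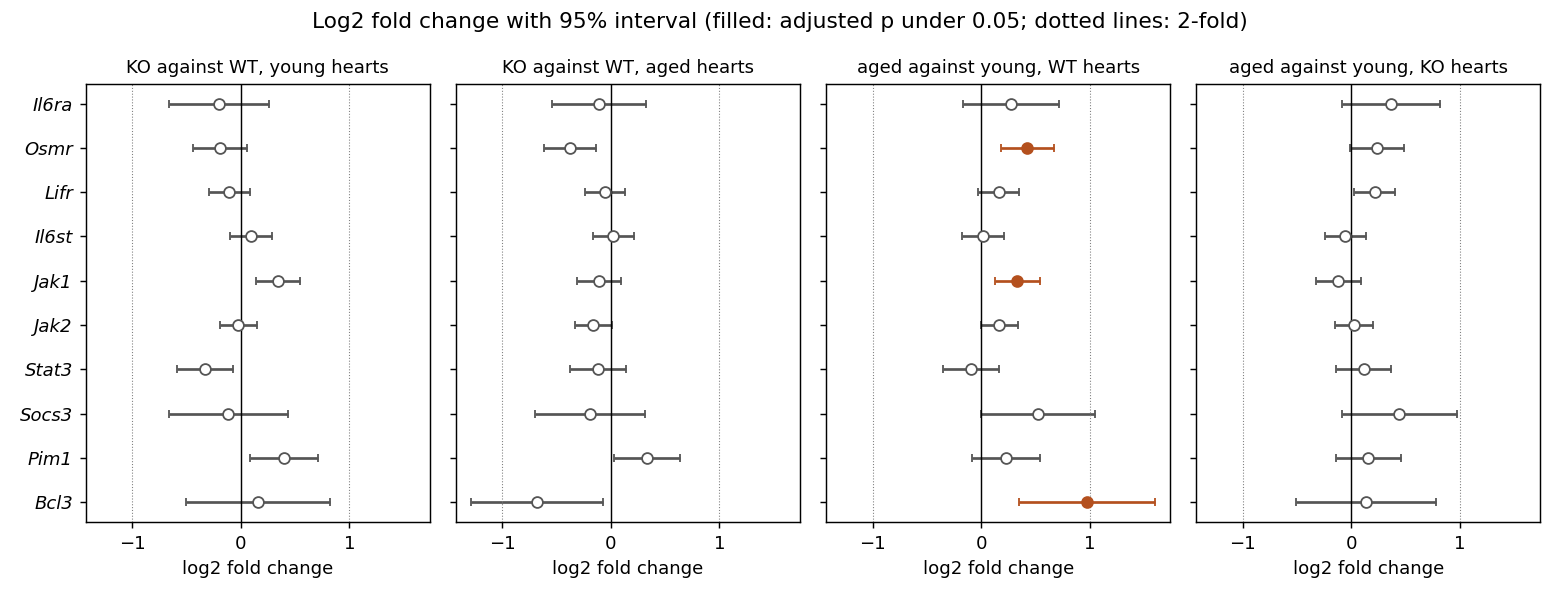
Log2 fold change of the 10 genes (x axis, log2 units) in 4 comparisons, with points for the estimate, bars for its 95% interval, filled points for an adjusted p under 0.05 and dotted lines at 2-fold. The filled points are Osmr (0.42), Jak1 (0.33) and Bcl3 (0.97) in aged against young wild-type hearts; the interval of Bcl3 is the widest there, from 0.34 to 1.60.

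Markers of several cell types moved with age in the same hearts, and their part in the values of Osmr, Jak1 and Bcl3 was not tested. The counts below stand beside 21.9% of all tested genes that passed with age in wild-type hearts and 7.67% in knockout hearts. For knockout against wild type at 25 months that share was 1.11%. Of 10 macrophage markers, 9 rose with age in wild-type hearts and 9 in knockout hearts; their summed level was 202 to 276 CPM in 8-week wild-type, 542 to 748 CPM in 25-month wild-type, 222 to 284 CPM in 8-week knockout and 407 to 442 CPM in 25-month knockout hearts. Of 8 neutrophil markers 4 could be tested, and all 4 rose with age in wild-type hearts and 2 in knockout hearts, with summed levels of 1.81 to 2.53, 22.2 to 35.8, 1.84 to 4.12 and 4.82 to 15.5 CPM in the same order of groups. In knockout against wild type at 25 months, 1 of 10 macrophage markers (Mrc1) and 3 of 4 tested neutrophil markers passed as lower. All 10 macrophage markers had a negative difference (median -0.532), and for 6 of them the groups of hearts did not overlap, beside 5.05% of all tested genes. All 4 tested neutrophil markers were negative as well (median -1.621). Among the defining neutrophil genes, Ly6g and Elane were at 0 in all 8-week wild-type hearts, Mpo in all 25-month wild-type hearts, and all 3 in both knockout groups. Markers of blood moved as well: 6 of 6 tested erythroid genes rose with age in wild-type hearts, where their sum went from 528 to 715 CPM at 8 weeks to 1021 to 2211 CPM at 25 months, and 0 of 6 passed in knockout hearts (616 to 1078 and 898 to 1838 CPM). Of 10 cardiomyocyte markers, 4 fell with age in wild-type hearts (sums of 94330 to 108200 CPM at 8 weeks and 77640 to 94610 CPM at 25 months) and 1 in knockout hearts (93250 to 108000 and 80330 to 89220 CPM). Of 8 smooth muscle and pericyte markers, 5 fell in wild-type (1128 to 1695 and 910 to 1128 CPM) and 0 in knockout hearts (1117 to 1241 and 1008 to 1089 CPM). Of 9 fibroblast markers, 2 fell in wild-type (2401 to 2945 and 2268 to 2912 CPM) and 0 passed in knockout hearts (2507 to 3136 and 2611 to 3391 CPM). Between genotypes at 25 months 8 of the 9 were positive (median 0.192), and 0 passed. Of 8 endothelial markers, 1 rose and 2 fell in wild-type (1315 to 1738 and 1612 to 1899 CPM), and likewise in knockout hearts (1468 to 1906 and 1380 to 1778 CPM). Of 3 tested T and NK cell markers, 2 rose in wild-type hearts (1.85 to 2.74 and 3.44 to 12.9 CPM for the whole list) and 0 in knockout hearts (2.27 to 3.70 and 1.45 to 4.66 CPM), and 1, Cd8a, was lower in knockout than in wild-type hearts at 25 months (edgeR adjusted p = 0.0164). Of 9 atrial cardiomyocyte markers 7 were tested: 1 fell with age in wild-type hearts, and 1 rose and 1 fell in knockout hearts. The sums over all 9 were 351 to 561, 225.5 to 557, 329 to 799 and 247 to 715 CPM, in the order of groups used for macrophages. At 25 months 6 of the 7 were higher in knockout than in wild-type hearts, and 0 passed. The largest were Sln (6.77 ± 2.05, edgeR adjusted p = 0.143), Myl7 (6.55 ± 1.80, adjusted p = 0.0917) and Myl4 (3.79 ± 0.99, adjusted p = 0.0768). The others were Kcnj3 (0.34 ± 0.12), Stard10 (0.26 ± 0.13), Nppa (0.05 ± 0.59) and Kcna5 (-0.11 ± 0.17), and the median was 0.34. At 8 weeks 6 of the 7 were positive too (median 0.164), with Sln at 3.10 ± 1.27 and Myl7 at 2.69 ± 1.08, and 0 passed.

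The 10 genes fell into 3 tiers of transcript level. On the length-scaled FPKM scale, which allows genes to be compared, the median over the 16 hearts was 46.9 for Il6st, 44.4 for Jak1 and 42.1 for Stat3, so the shared receptor chain, its kinase and its transcription factor stood at like levels. Jak2 followed at 10.3, Lifr at 9.18, Pim1 at 7.50 and Osmr at 6.90 FPKM. Socs3 at 2.61, Bcl3 at 2.40 and Il6ra at 1.27 FPKM were the lowest. Neighbours inside a tier overlapped over the hearts: Il6st exceeded Jak1 in 11 of 16 hearts, Jak1 exceeded Stat3 in 10, Jak2 exceeded Lifr in 12, Lifr exceeded Pim1 in 14, Pim1 exceeded Osmr in 9, Socs3 exceeded Bcl3 in 10 and Bcl3 exceeded Il6ra in 13. The steps between tiers held in every heart, with Stat3 above Jak2 and Osmr above Socs3 in 16 of 16.

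Il6st transcripts thus far outnumbered those of the ligand-specific chains. The median ratio of Il6st to Il6ra in FPKM was 37.3 in 8-week wild-type, 31.5 in 25-month wild-type, 44.2 in 8-week knockout and 32.6 in 25-month knockout hearts. The ratio to Osmr was 6.62, 5.41, 8.07 and 6.83 in the same order, and the ratio to Lifr 4.93, 4.74, 5.39 and 4.61. These ratios are levels of RNA in the whole organ, and the chains can be expressed by different cells.

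**Figure D2:**
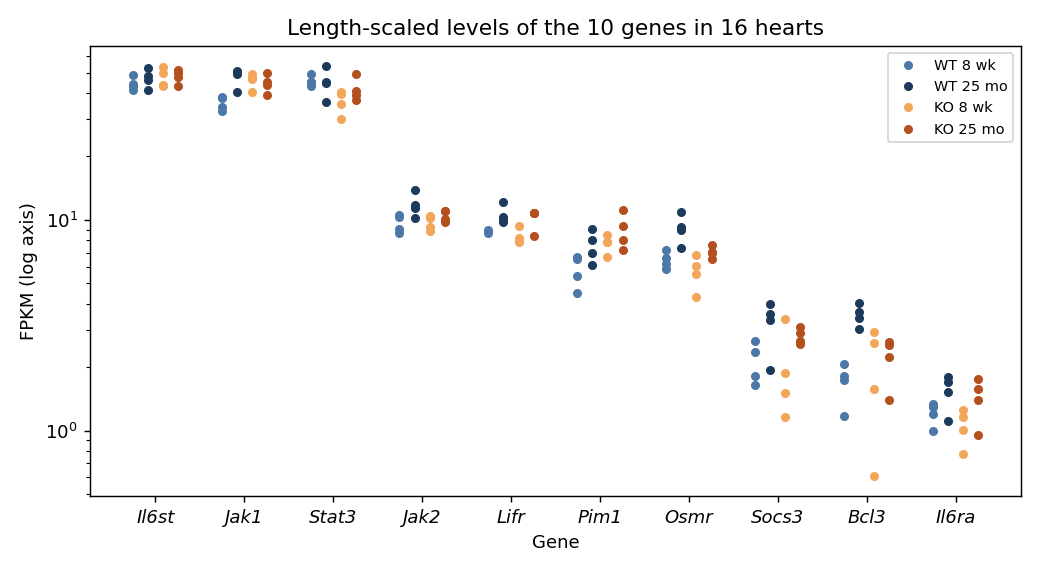
FPKM (y axis, log scale) of the 10 genes in each of the 16 hearts, ordered by their median and coloured by group. Il6st, Jak1 and Stat3 lie between 30.1 and 53.6 FPKM in every heart, and Il6ra lies between 0.77 and 1.79 FPKM.

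Among the receptors, Osmr rose with age in wild-type hearts. It stood at 30.1, 26.95, 30.3 and 33.9 CPM in the 8-week wild-type hearts and at 47.9, 41.0, 34.3 and 39.7 CPM in the 25-month wild-type hearts. Every old wild-type heart lay above every young one, although the lowest old heart exceeded the highest young heart by little. The log2 change was 0.42 ± 0.12, or 1.34-fold (edgeR adjusted p = 0.0129), and it kept its call when any 1 heart was left out (0.35 to 0.50, adjusted p 0.00466 to 0.0403). In knockout hearts Osmr stood at 31.2, 25.4, 28.6 and 21.1 CPM at 8 weeks and at 28.8, 30.2, 33.96 and 32.1 CPM at 25 months. These 2 groups overlapped, and the change of 0.24 ± 0.12 with age in knockout hearts did not pass (edgeR adjusted p = 0.253).

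At 25 months the knockout hearts all lay below the wild-type hearts for Osmr, with a log2 difference of -0.38 ± 0.12 (95% interval -0.62 to -0.14) that missed the threshold (edgeR adjusted p = 0.144). Osmr and Bcl3 were the 2 of the 10 genes whose groups did not overlap in that comparison, beside 5.05% of all tested genes. At 8 weeks the difference in Osmr was -0.19 ± 0.12 (edgeR adjusted p = 0.563). The ageing change in knockout minus that in wild type was -0.19 ± 0.16 (edgeR adjusted p = 0.69), so a difference between genotypes in the ageing of Osmr was not detected.

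The other 3 receptor genes did not pass in any comparison. Il6st, the shared chain, had mean levels of 236 ± 18.2, 239 ± 24.3, 252 ± 23.8 and 243 ± 16.8 CPM (SD, n = 4) in 8-week wild-type, 25-month wild-type, 8-week knockout and 25-month knockout hearts. It was the steadiest of the 4 receptors across conditions, with log2 differences between -0.05 and 0.09 in the 4 pairwise comparisons and overlapping groups throughout. For knockout against wild type its 95% interval ran from -0.17 to 0.21 at 25 months and from -0.10 to 0.28 at 8 weeks.

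Lifr, the chain that binds leukaemia inhibitory factor and cardiotrophin-1, was 83.4 ± 4.49 CPM in 8-week and 93.4 ± 5.94 CPM in 25-month wild-type hearts, and 77.4 ± 7.77 and 89.9 ± 10.4 CPM in the knockout hearts of these ages (SD, n = 4). In the knockout, 3 old hearts at 92.3, 95.6 and 97.0 CPM lay above all 4 young hearts (70.0, 74.3, 88.2 and 77.1 CPM), and heart KO_Aged-114 at 74.6 CPM lay among them. KO_Aged-114 also had the highest summed level of atrial cardiomyocyte markers in its group (715 CPM, against 247 to 378 CPM). Which genes carried that sum is not given here, and the part of this in its Lifr value was not tested. The log2 change with age in knockout hearts, 0.22 ± 0.09, missed the threshold (edgeR adjusted p = 0.163), and it passed without that heart (0.30, adjusted p = 0.0375) and when libraries were scaled by their totals alone (0.29, adjusted p = 0.042). With age in wild-type hearts the change was 0.16 ± 0.09 (edgeR adjusted p = 0.205), and the difference between these ageing changes was 0.05 ± 0.13.

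Il6ra, the chain that gives cells their response to IL-6, was the least abundant receptor, with 29 to 70 reads in a heart. Its levels were 3.06, 3.78, 4.48 and 4.11 CPM in young wild-type and 3.33, 5.39, 5.35 and 4.56 CPM in old wild-type hearts. In knockout hearts they were 3.62, 2.39, 4.04 and 3.34 CPM at 8 weeks and 5.28, 2.82, 4.26 and 4.85 CPM at 25 months. All 4 groups overlapped, and each old group had 1 heart as low as the young ones. The changes with age were 0.27 ± 0.21 in wild-type and 0.37 ± 0.22 in knockout hearts, and the differences between genotypes were -0.11 ± 0.21 at 25 months and -0.20 ± 0.22 at 8 weeks.

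**Figure D3:**
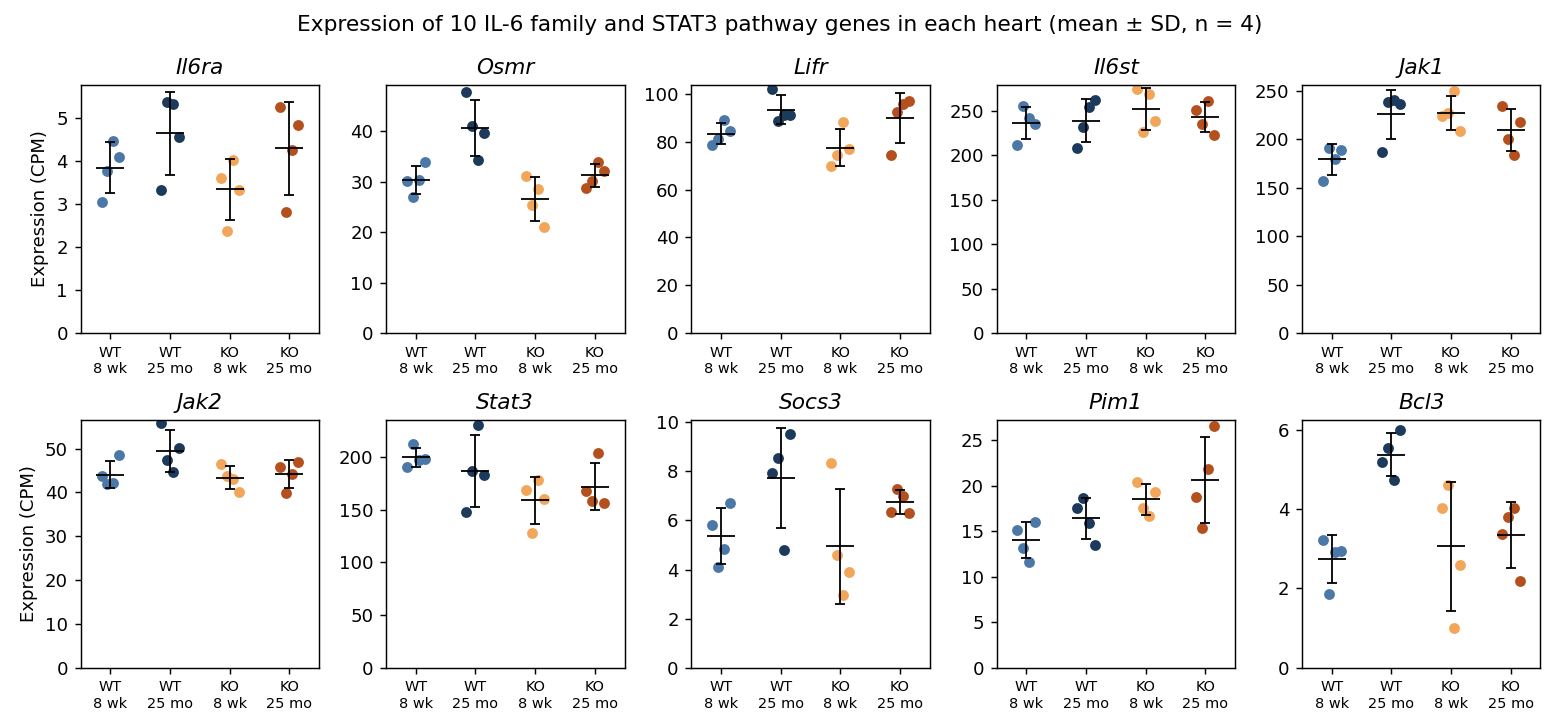
CPM (y axes, from 0) of each of the 10 genes in each heart, with 1 point per heart, a line for the group mean and bars for 1 SD (n = 4). Osmr and Bcl3 are higher in all 4 old wild-type hearts than in all 4 young ones; Jak1 is lowest in young wild-type hearts (mean 179 CPM) and close together in the other 3 groups (209 to 227 CPM).

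Of the kinases, Jak1 rose with age in wild-type hearts and Jak2 did not pass in any comparison. Jak1 stood at 156, 191, 179 and 189 CPM in young and at 187, 238, 241 and 237 CPM in old wild-type hearts. Heart 1 was the one old wild-type heart within the young range, and the other 3 lay together well above it. The change was 0.33 ± 0.10, or 1.26-fold (edgeR adjusted p = 0.0206), and without young wild-type heart 29, the lowest, it was 0.29 (adjusted p = 0.0548). In the knockout Jak1 stood at 224, 227, 250 and 208 CPM at 8 weeks and at 234, 200, 184 and 218 CPM at 25 months, with no order by age (-0.12 ± 0.10, edgeR adjusted p = 0.525). The deposited estimates of Jak1 were not whole numbers in any of the 16 libraries, as happens where reads are divided between features. The uncertainty this adds to its values was not measured. Estimates of the other 9 genes were whole in all libraries.

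All 4 young knockout hearts lay above all 4 young wild-type hearts for Jak1, with a log2 difference of 0.34 ± 0.10 (95% interval 0.14 to 0.55) that missed the threshold (edgeR adjusted p = 0.174). Stat3, Jak1 and Pim1 were the 3 of 10 genes whose genotypes did not overlap at 8 weeks, beside 8.48% of all tested genes. At 25 months the Jak1 difference was -0.11 ± 0.10. The ageing change in knockout minus that in wild type was -0.45 ± 0.14 (unadjusted p = 0.00423, edgeR adjusted p = 0.16). Without old wild-type heart 1 it was -0.55 and passed (edgeR adjusted p = 0.0396). That was 1 of 16 fits with 1 heart left out, and it passed in no other of them.

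Jak2, which also associates with gp130 and serves many other cytokine receptors, averaged 44.1 ± 3.13 and 49.5 ± 4.77 CPM in young and old wild-type hearts and 43.4 ± 2.58 and 44.2 ± 3.14 CPM in young and old knockout hearts (SD, n = 4). The groups overlapped in every comparison. Its largest difference, 0.17 ± 0.08 with age in wild-type hearts, did not pass (edgeR adjusted p = 0.153), and the difference between genotypes was -0.16 ± 0.08 at 25 months and -0.02 ± 0.08 at 8 weeks. The median ratio of Jak1 to Jak2 in FPKM was 3.75, 4.38, 4.56 and 4.29 in young wild-type, old wild-type, young knockout and old knockout hearts.

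Stat3 itself did not pass in any comparison. In the 8-week wild-type hearts it stood at 191, 212, 197 and 199 CPM, and in the 8-week knockout hearts at 169, 128, 179 and 160 CPM. Every young knockout heart lay below every young wild-type heart, and the log2 difference of -0.33 ± 0.12 (0.796-fold, 95% interval -0.59 to -0.07) missed the threshold (edgeR adjusted p = 0.321). At 25 months the wild-type hearts spread from 148 to 230 CPM (148, 187, 230 and 183 CPM) and the knockout hearts stood at 168, 158, 204 and 157 CPM. These groups overlapped, with a difference of -0.12 ± 0.12 (edgeR adjusted p = 0.787). The change with age was -0.10 ± 0.12 in wild-type and 0.11 ± 0.12 in knockout hearts, and without old wild-type heart 1 the wild-type value was 0.02.

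Among the targets, Bcl3, an atypical IkB protein that works with NF-kB p50 and p52 in the nucleus, had the largest change of the 10 genes, an increase with age in wild-type hearts. Its levels were 3.22, 1.85, 2.93 and 2.94 CPM in young and 5.19, 5.55, 4.74 and 6.00 CPM in old wild-type hearts. All 4 old hearts lay above all 4 young ones, and the change was 0.97 ± 0.30, or 1.96-fold (edgeR adjusted p = 0.0258). Bcl3 was counted with only 12 to 75 reads in a heart, and the call did not hold without young heart 34 (0.84, adjusted p = 0.0822), young heart 39 (1.005, adjusted p = 0.0506) or old heart 12 (0.92, adjusted p = 0.0563). With Osmr, it was 1 of 2 genes of the 10 whose wild-type age groups did not overlap, beside 21.7% of all tested genes.

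In the knockout, Bcl3 stood at 4.04, 4.61, 0.990 and 2.59 CPM at 8 weeks and at 3.36, 3.81, 4.04 and 2.18 CPM at 25 months. The young knockout hearts spanned the whole range of the old ones, and the change with age was 0.13 ± 0.31. At 25 months all 4 knockout hearts lay below all 4 wild-type hearts, with a difference of -0.68 ± 0.29 (0.625-fold, 95% interval -1.29 to -0.07) that missed the threshold (edgeR adjusted p = 0.382). The difference in ageing was -0.84 ± 0.43 (edgeR adjusted p = 0.449), and its interval, from -1.74 to 0.06, was the widest of the 10 genes.

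Socs3, the feedback inhibitor that STAT3 induces, stood at 5.79, 4.10, 4.82 and 6.71 CPM in young and at 7.95, 8.56, 4.81 and 9.52 CPM in old wild-type hearts. Heart 5 was the one old wild-type heart within the young range. The change of 0.52 ± 0.25 (1.44-fold) did not pass (edgeR adjusted p = 0.143), and without heart 5 it passed at 0.69 (adjusted p = 0.045). In knockout hearts the values were 8.32, 4.61, 2.97 and 3.92 CPM at 8 weeks and 6.35, 7.29, 7.01 and 6.31 CPM at 25 months. Here the odd heart was a young one: heart 27 exceeded all 4 old hearts, which lay close together above the other 3 young hearts. The change was 0.44 ± 0.25 (edgeR adjusted p = 0.329) and passed without heart 27 (0.81, adjusted p = 0.0415). Between genotypes the differences were -0.19 ± 0.24 at 25 months and -0.11 ± 0.26 at 8 weeks.

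Pim1, a survival kinase whose gene is induced by STAT3 and STAT5, was the one gene of the 10 with a positive difference above 0.3 for knockout against wild type at both ages. Its levels were 15.1, 13.2, 11.6 and 16.03 CPM in young wild-type and 20.4, 17.5, 16.7 and 19.4 CPM in young knockout hearts. These groups did not overlap, and the difference of 0.40 ± 0.15 (1.32-fold, 95% interval 0.09 to 0.71) missed the threshold (edgeR adjusted p = 0.319). At 25 months wild-type hearts stood at 17.6, 18.7, 15.96 and 13.4 CPM and knockout hearts at 18.7, 15.4, 21.9 and 26.5 CPM. There the groups overlapped, with a difference of 0.33 ± 0.15 (edgeR adjusted p = 0.4). The changes with age, 0.23 ± 0.15 in wild-type and 0.16 ± 0.14 in knockout hearts, did not pass either, and the count of genes without overlap for ageing in knockout hearts was 0 of the 10, beside 15.7% of all tested genes.

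STAT proteins bind the motif TTCNNNGAA, and the promoters of the 10 genes were searched for it in RefSeq windows of build GRCm38.p6, which run from 250 bases before to 50 after a transcript start. The submitters' processing notes name GRCm39 and the count table carries no coordinates, so the windows serve only as sequence. The motif is its own reverse complement in form, so 1 strand was read. The 10 genes have 12 windows, and 1 window, that of Socs3, held a match, TTCTTAGAA, with its first base at position -154 from the start. That is 8.33% of their windows, beside 8.29% of all 32817 windows and 6.76% of the 13602 windows of tested genes. The 250 bases before the start are printed, 5′ to 3′, for Socs3 with the match in capitals, and for the 3 genes that rose with age in wild-type hearts, whose windows held no match. The last 25 bases of the 300-base window were found in a GENCODE transcript of the gene for Osmr, Jak1 and Bcl3 but not for Socs3, so the Socs3 start is less certain.
Socs3 (chr11:117969367-117969616, minus strand): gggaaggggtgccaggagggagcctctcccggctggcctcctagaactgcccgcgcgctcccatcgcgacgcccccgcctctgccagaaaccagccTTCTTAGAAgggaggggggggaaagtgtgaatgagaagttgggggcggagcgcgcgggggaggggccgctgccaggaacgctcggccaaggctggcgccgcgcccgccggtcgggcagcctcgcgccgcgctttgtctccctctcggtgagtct
Osmr (chr15:6874314-6874563, minus strand): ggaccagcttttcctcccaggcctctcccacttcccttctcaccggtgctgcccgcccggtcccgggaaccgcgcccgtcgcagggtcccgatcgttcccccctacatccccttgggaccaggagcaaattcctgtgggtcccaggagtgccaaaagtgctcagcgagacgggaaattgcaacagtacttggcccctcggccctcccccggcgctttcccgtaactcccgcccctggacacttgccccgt
Jak1 (chr4:101265224-101265473, minus strand): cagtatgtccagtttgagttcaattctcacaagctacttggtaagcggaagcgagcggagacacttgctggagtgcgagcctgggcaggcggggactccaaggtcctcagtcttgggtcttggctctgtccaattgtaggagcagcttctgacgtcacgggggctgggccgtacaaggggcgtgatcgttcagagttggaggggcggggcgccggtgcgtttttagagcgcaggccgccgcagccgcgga
Bcl3 (chr7:19822756-19823005, minus strand): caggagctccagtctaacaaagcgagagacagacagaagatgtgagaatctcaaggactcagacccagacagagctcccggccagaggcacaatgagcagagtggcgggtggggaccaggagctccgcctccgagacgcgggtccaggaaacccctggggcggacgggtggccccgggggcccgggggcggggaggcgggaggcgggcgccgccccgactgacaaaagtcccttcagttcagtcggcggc

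Most of the ligands of the family were scarce. Of 12 listed ligand genes, 7 were too low to test, and 6 of those, Il6, Il11, Osm, Ctf2, Il27 and Il31, had at most 6 reads in any heart. Il6 totalled 4, 4, 8 and 6 reads and Osm, the ligand of the receptor that rose, 3, 9, 5 and 9 reads over the 4 hearts of young wild-type, old wild-type, young knockout and old knockout mice. Of the 5 tested ligands, 1 passed in 1 comparison, with age in wild-type hearts, beside 21.9% of all tested genes. Clcf1, which encodes cardiotrophin-like cytokine factor 1, a ligand of the CNTF receptor, rose there from 2.19 ± 0.60 to 3.67 ± 0.55 CPM (SD, n = 4). Its log2 change was 0.74 ± 0.22 (edgeR adjusted p = 0.021), lost without old heart 5 (0.64, adjusted p = 0.0606), young heart 34 (0.62, adjusted p = 0.0715) or young heart 39 (0.72, adjusted p = 0.0558). Lif, which binds the receptor encoded by Lifr, was 0.575 ± 0.230, 0.574 ± 0.135, 0.563 ± 0.422 and 0.734 ± 0.252 CPM in the 4 groups (SD, n = 4) and did not pass. None of the 6 tested genes among the other receptor chains and the ADAM sheddases passed in any of the 5 comparisons.

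Among the other JAK and STAT genes examined, 6 were tested. At 25 months 1 of them passed between genotypes, beside 1.11% of all tested genes. It was Stat2, a STAT of interferon signalling, lower in knockout than in wild-type hearts (-1.15 ± 0.24, edgeR adjusted p = 0.0197). The call was lost without the old knockout heart KO_Aged-115 (adjusted p = 0.077) or KO_Aged-122 (0.0984), and without old wild-type heart 5 the value was -0.72. It was also lost with limma on FPKM, with only the 8 libraries compared and with a robust spread estimate (adjusted p 0.0508 to 0.163). With age in wild-type hearts, where 21.9% of all tested genes passed, Stat2 (1.38 ± 0.24) and Jak3 (0.40 ± 0.13) rose and Stat5b (-0.29 ± 0.10) fell, with -0.19 for Stat5b without old heart 1. None of the 6 passed with age in knockout hearts, beside 7.67% of all tested genes. The calls of Jak3 and Stat5b were lost in 4 and 5 of the 8 fits with 1 heart left out and with only the 8 libraries compared (adjusted p = 0.0752 and 0.126), and that of Stat5b also with each of 3 other scalings, the stricter filter and limma on FPKM (adjusted p 0.0509 to 0.124). The estimates of Stat5b, which has a near-identical neighbour in Stat5a, were not whole numbers. The median log2 change of the 6 was 0.15 with age in wild-type and 0.07 with age in knockout hearts.

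Of 15 tested negative regulators of the pathway, 3 rose with age in wild-type hearts and 2 in knockout hearts, and none passed between genotypes, beside 21.9%, 7.67% and, between genotypes, 1.11% and 0.322% of all tested genes. Socs2, a feedback inhibitor best known from growth hormone signalling, rose in both, by 0.59 ± 0.12 in wild-type (edgeR adjusted p = 0.00197) and 0.77 ± 0.12 in knockout hearts (adjusted p = 0.000653). Ptpn6, a phosphatase found mainly in blood cells, rose by 1.49 ± 0.17 and 0.58 ± 0.17 (adjusted p = 6.32e-06 and 0.0422); the knockout call was lost in 6 of 8 fits with 1 heart left out. Socs1, an inhibitor induced by interferons and cytokines, rose by 1.27 ± 0.33 in wild-type hearts (adjusted p = 0.00908), where the age groups overlapped, and was 0.34 ± 0.34 in knockout hearts. The median log2 change of the 15 was -0.07 in wild-type and 0.02 in knockout ageing. Among 11 adaptors of the gp130 branch that leads to MAP kinase, Grb2 fell with age in wild-type hearts (-0.30 ± 0.08, edgeR adjusted p = 0.0112; -0.23 without young heart 39, adjusted p = 0.0535, and -0.28 with only the 8 libraries compared, adjusted p = 0.0748), and no other passed anywhere.

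Most other known targets of STAT3 answer to other transcription factors as well. Of 34 listed genes 32 were tested; 11 rose and 3 fell with age in wild-type hearts, 5 rose in knockout hearts, beside 21.9% and 7.67% of all tested genes, and the medians were 0.31 and 0.22. The 4 with the smallest p in wild-type hearts were Irf1 (1.14 ± 0.14), an interferon-induced transcription factor, Icam1 (1.21 ± 0.17), a leukocyte adhesion molecule, Vegfa (-0.45 ± 0.07), the vascular growth factor, and Tnfrsf1a (0.49 ± 0.08), a TNF receptor. In knockout hearts the 5 were the metallothionein genes Mt2 (1.98 ± 0.29) and Mt1 (0.71 ± 0.15), the haem oxygenase gene Hmox1 (1.02 ± 0.22), Icam1 (0.76 ± 0.17) and Myc (0.69 ± 0.19). In wild-type hearts Mt2 (1.74 ± 0.28), Hmox1 (1.38 ± 0.23) and Myc (0.57 ± 0.20) rose as well as Icam1. Mt1 missed the threshold there (0.40 ± 0.15, edgeR adjusted p = 0.0542). Between genotypes 1 of the 32 passed at 25 months and 0 at 8 weeks, beside 1.11% and 0.322% of all tested genes. That gene was Irf1, at 64.1 ± 15.6 CPM in old wild-type and 34.3 ± 3.15 CPM in old knockout hearts (SD, n = 4), a difference of -0.90 ± 0.14 (edgeR adjusted p = 0.00298, and 0.0538 with only the 8 libraries compared). Irf1 also differed between genotypes in its ageing change (-1.09 ± 0.20, edgeR adjusted p = 0.0119).

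Among 8 listed genes of NF-kB and IkB proteins, 1 passed with age in wild-type hearts, beside 21.9% of all tested genes. It was Nfkbie, which encodes the inhibitor IkB-epsilon and rose by 0.96 ± 0.24 (edgeR adjusted p = 0.00791). None of the 8 passed in another comparison. In knockout hearts its change was 0.37 ± 0.24. The medians of the 8 were 0.07 with age in wild-type and -0.09 with age in knockout hearts.

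**Figure D4:**
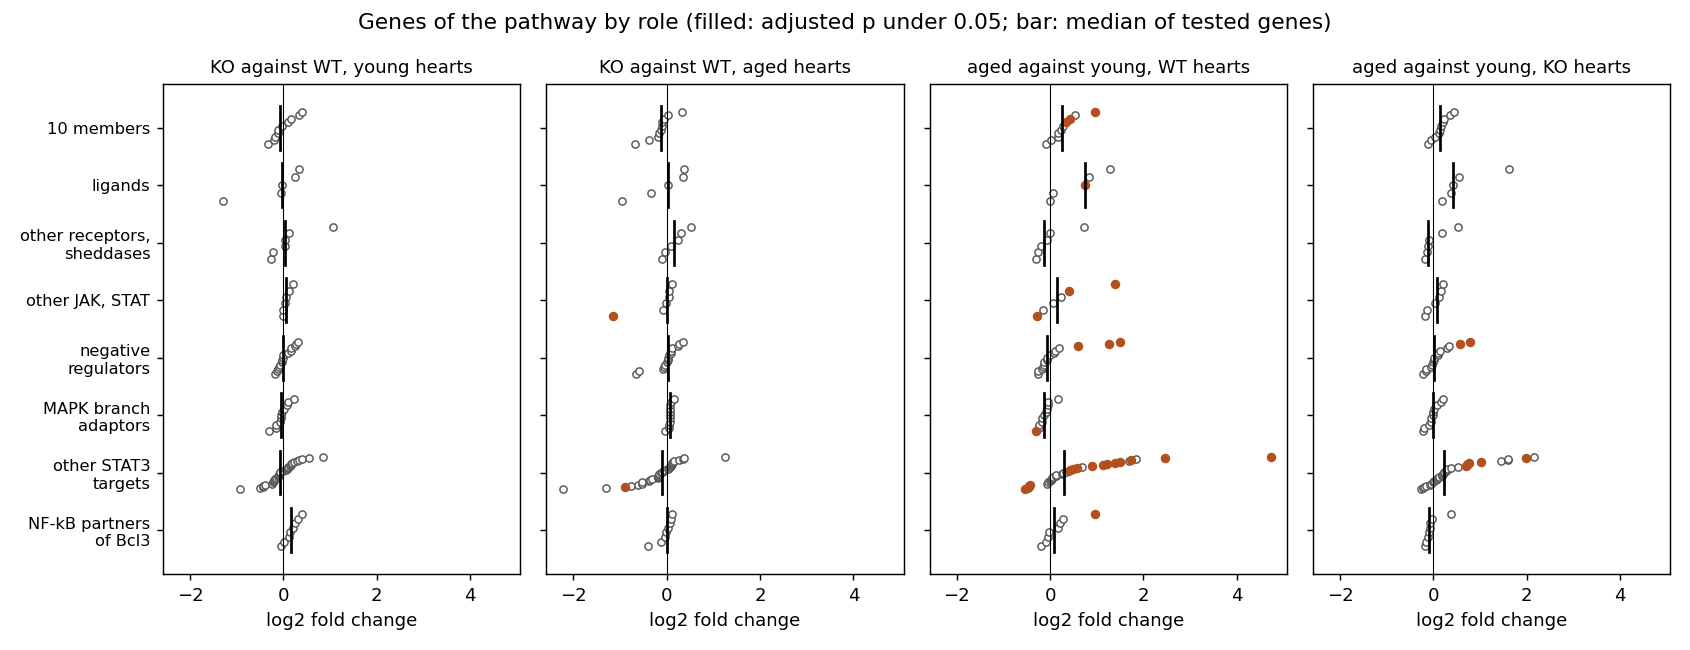
Log2 fold change (x axis, log2 units) of each tested gene of the pathway in 4 comparisons, in rows by role, with filled points for an adjusted p under 0.05 and a bar at the median of the row. Most filled points lie in aged against young wild-type hearts, and the filled points for knockout against wild type are Stat2 and Irf1 in aged hearts.

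The genes whose levels ran most closely with Stat3, Socs3 and Osmr over the 16 hearts were ranked among 10503 genes by Pearson's r of log2 CPM, as a description in hearts that share age, genotype and library. For Stat3 they were Cmklr1 (0.860), Marf1 (0.851), Zfp809 (0.836), Appbp2 (0.827) and Ddi2 (0.809), and with the group means taken out these values were 0.890, 0.815, 0.825, 0.861 and 0.809. For Socs3 they were Lrrc8b (0.816), Cmah (0.812), Strit1 (0.805), Pdpn (0.794) and Icam1 (0.782), which is also in the list of STAT3 targets. For Osmr they were Ifi205 (0.897), Lgi2 (0.878), Rab7b (0.856), Cr1l (0.854) and Dck (0.846). With the group means taken out, the values lay between 0.663 and 0.755 for Socs3. For Osmr they lay between 0.564 and 0.804 for Ifi205, Lgi2, Rab7b and Dck, and that of Cr1l was 0.857.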

How the data were processed

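RNA of 16 mouse hearts was sequenced by the submitters' provider. The authors deposited expected counts per gene (estimates, 11.5% to 12.2% of the values above 0 not whole) and FPKM per gene; HISAT, Bowtie2 and GRCm39 are named without role or version, per the submitters' processing notes, and the counting program and its use of strand are not given in the sources used here. Totals per library were 11456503 to 13298660, and no 2 libraries of a group agreed within sampling noise (1 old wild-type heart stood apart, as described above).

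The expected counts were rounded and tested in R 4.3.3 with edgeR 4.0.16: filterByExpr (13373 of 18346 genes kept), TMM scaling, 1 quasi-likelihood fit over all 16 libraries (12 residual degrees of freedom) and Benjamini-Hochberg adjustment over all genes tested, with a threshold of 0.05. CPM uses the same scaling. The script was tested on simulated data. The 8-week wild-type titles begin with another prefix than the columns, so these columns were matched by animal number and genotype label. Alternatives were other scalings and filters, DESeq2 1.42.0, limma 3.58.1 on log2(FPKM + 1 or 0.1), fits on 8 libraries, leaving out each heart in turn and, chosen after seeing the data, a robust spread estimate.

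The 10 genes and all lists were chosen with earlier results of these data known. Named genes are Armh4, the 10 genes, 6 further genes named throughout (Socs1, Socs2, Il6, Lif, Osm and Il11), up to 4 called genes per list and comparison by adjusted p, and the 5 genes most like Stat3, Socs3 and Osmr. Myc and the single marker genes of cell types were named after their values were seen. Another gene of the lists is not reported here.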

Additional observations from a re-analysis of the deposited data

Results flagged for a closer look

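Jak1 in old wild-type heart 1, at 187.2 CPM, lay far below the other 3 hearts of its group, the nearest of which was at 236.5 CPM. Hmox1 in young knockout heart 27, at 15.38 CPM, lay far above its group (mean 9.70 CPM, lowest 7.16 CPM). Of 112 groups of 4 hearts examined, these 2 passed Dixon's 95% limit for a single distant value, and chance alone gives about 1 in 20. The ageing change of Irf1 differed between genotypes by -1.09 (log2, edgeR interaction test, adjusted p = 0.0119), with 1.14 ± 0.14 in wild-type and 0.05 ± 0.14 in knockout hearts; the interaction missed the threshold with limma on unfiltered FPKM (-0.996, adjusted p = 0.0723).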

How the results depend on the processing

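The count of the 10 genes that passed was 0 for knockout against wild type at both ages under every alternative run. With age in wild-type hearts it was 3 in all of them except the stricter filter, which removed Bcl3 and left 2, and the fits with 1 heart left out (2 to 4). With age in knockout hearts it became 1 with library totals alone (Lifr) and 0 to 1 with 1 heart left out, and for the difference in ageing 0 to 1 with 1 heart left out. Outside those fits, the wild-type ageing change was 0.42 to 0.50 for Osmr, 0.33 to 0.41 for Jak1 and 0.75 to 1.04 for Bcl3.

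The number of all genes called depended more on the processing. For knockout against wild type at 25 months the 149 became 263 with DESeq2, 24 with only the 8 libraries compared, and 94, 65 and 81 with limma on log2(FPKM + 1), on log2(FPKM + 0.1) and without a filter, and 50 to 258 with 1 heart left out. At 8 weeks the 43 became 149 with DESeq2, 113 with 8 libraries, 27 with upper-quartile scaling, 28 with library totals, 24, 26 and 7 with limma in the same order, and 3 to 21 with 1 heart left out. For the difference in ageing the 77 became 213 with DESeq2, 46 with limma on log2(FPKM + 0.1), 39 without a filter, and 39 to 179 with 1 heart left out. With age in knockout hearts the 1026 became 643 to 874 with 1 heart left out. Of the genes called with age, 54.2% were higher in wild-type hearts, against 68.3% with upper-quartile scaling and 71.8% with library totals; in knockout hearts 65.6% were, against 82.8% with library totals. No scaling moved the median of all genes by more than 0.1.

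Directions that turned belonged to values near 0 that passed no test, and the cause was not tested. Between genotypes at 8 weeks Jak2 was 0.0051 and 0.0058 with limma (pseudocounts of 1 and 0.1) and 0.0051 without a filter. With age in knockout hearts Il6st was 0.0189 with library totals and 0.0217, 0.0222 and 0.0217 with limma. With age in wild-type hearts Lif was 0.0431 with upper-quartile scaling, 0.0552 with library totals and 0.0041 with limma without a filter. The difference in ageing of Socs3 was 0.0363 with limma on log2(FPKM + 0.1). With 1 heart left out, the ranges at 25 months were -0.25 to 0.037 for Il6ra, -0.049 to 0.066 for Il6st and -0.093 to 0.023 for Lifr, and at 8 weeks -0.099 to 0.46 for Bcl3, -0.0503 to 0.036 for Jak2, -0.67 to 0.25 for Lif and -0.47 to 0.076 for Socs3. With age they were -0.16 to 0.40 for Bcl3 and -0.0089 to 0.076 for Jak2 in knockout hearts, and -0.025 to 0.095 for Il6st, -0.18 to 0.29 for Lif and -0.21 to 0.018 for Stat3 in wild-type hearts. For the difference in ageing they were -0.057 to 0.24 for Il6ra, -0.0076 to 0.13 for Lifr, -0.22 to 0.043 for Pim1 and -0.27 to 0.28 for Socs3.

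No paired analysis was possible because the 4 groups share no animal number. Bcl3, Il6ra and Socs3 rest on 12 to 119 reads a heart, which limits their precision most among the 10 genes.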
